A study of Mus musculus with 3 samples.

Results

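The 44 collagen chain genes of the mouse were followed across the cells of injured and sham-operated femoral arteries. They were all genes of the count tables whose symbol has the form Col, a number, a and a number, 44 of the 32285 genes listed. By structure they were 11 fibrillar, 8 basement membrane, 12 network, 9 FACIT (fibril-associated with interrupted triple helices) and 4 transmembrane chains. Cells came from 8-week-old wild-type male mice that had a wire-induced femoral artery injury and were sampled 2 days (D2) or 7 days (D7) later, or a sham operation (Sham), for which the labels give no time of harvest. The labels name no allele or transgene in any group. Live cells free of the dye DAPI were sorted as singlets, and each group was 1 droplet library (10x Chromium 3' v3) from a pool of 6 mice. With 1 library per group, no difference between groups could be tested, and all intervals are 95% intervals that cover counting error only.

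Collagens are secreted proteins of 3 chains wound into a triple helix. Fibrillar collagens form the tensile fibrils of the arterial adventitia and media, FACIT collagens sit on the surface of those fibrils, basement membrane collagens form the sheet under endothelium and around smooth muscle cells, and network collagens form beaded filaments and lattices between them. Each chain is made from its own gene, so cells adjust a collagen's makeup by adjusting separate transcripts. After wire injury the artery wall is repaired by cells that lay down new matrix.

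The letters that precede the transcription start are shown for 6 chains on which the results turn: 5 that were higher 7 days after injury in fibroblast-like cells, and Col5a3, the fibrillar chain that was lower. Each line gives 120 bases up to the start, 5′ to 3′ on the gene's strand, from RefSeq (GRCm38.p6), with motif matches in capitals. The windows overlap no exon of the GENCODE annotation. Of the 44 members, 35 had a window in the RefSeq table, and 9, among them Col1a1, Col5a2, Col12a1 and Col14a1, had none.
Col3a1: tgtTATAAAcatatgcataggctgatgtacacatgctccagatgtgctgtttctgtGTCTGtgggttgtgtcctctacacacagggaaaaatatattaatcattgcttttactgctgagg
Col5a1: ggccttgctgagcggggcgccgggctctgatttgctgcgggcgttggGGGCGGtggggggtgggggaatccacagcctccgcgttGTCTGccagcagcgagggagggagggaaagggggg
Col11a1: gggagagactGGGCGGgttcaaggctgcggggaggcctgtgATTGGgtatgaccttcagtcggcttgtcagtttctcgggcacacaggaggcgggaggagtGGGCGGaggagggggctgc
Col27a1: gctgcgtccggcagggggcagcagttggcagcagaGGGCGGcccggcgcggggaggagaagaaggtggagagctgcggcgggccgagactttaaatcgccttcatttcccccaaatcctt
Col8a1: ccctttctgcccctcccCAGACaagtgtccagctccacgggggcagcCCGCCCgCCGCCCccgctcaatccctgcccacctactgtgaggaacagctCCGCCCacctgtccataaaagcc
Col5a3: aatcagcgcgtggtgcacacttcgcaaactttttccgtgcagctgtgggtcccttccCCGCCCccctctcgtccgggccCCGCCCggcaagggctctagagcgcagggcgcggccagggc
The window of Col3a1 lies at chr1:45311418-45311537 (plus strand), that of Col5a1 at chr2:27886305-27886424 (plus), that of Col11a1 at chr3:114030420-114030539 (plus), that of Col27a1 at chr4:63215292-63215411 (plus), that of Col8a1 at chr16:57754738-57754857 (minus) and that of Col5a3 at chr9:20815068-20815187 (minus). The Col27a1 window precedes a RefSeq start inside the gene, whose annotated span begins at 63214004. Each of the other windows ends at the annotated start of its gene.

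The motifs searched on both strands were the TATA box TATAAA, the CCAAT box CCAAT, the GC box GGGCGG, the AP-1 site TGANTCA and the SMAD box CAGAC. Col3a1, the chain of type III collagen of elastic vessels, held a TATA box at -117 and a SMAD box at -64, counted back from the start. Col5a1, which nucleates collagen fibrils, held a GC box and a SMAD box, Col8a1 3 GC boxes and a SMAD box, Col11a1 2 GC boxes and a CCAAT box, Col27a1 1 GC box and Col5a3 2 GC boxes. GC boxes were found in 47.4% of the 38 collagen windows and in 26.5% of all 32851 windows of this length. The SMAD box was in 15.8% and 22.4%, and the TATA box in 7.89% and 6.34%. The GC box was present in 4 of the 5 windows of higher chains, not in that of Col3a1, and in that of Col5a3, which was lower. A match describes letters only. Several members are neighbours on the chromosome: Col4a1 and Col4a2 lie head to head on chromosome 8 with 22 shared bases, Col4a3 and Col4a4 head to head 71 bases apart, and Col3a1 and Col5a2 tail to tail 24614 bases apart.

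The libraries held 39756684 (Sham), 98260210.0 (D2) and 100571340.0 (D7) UMIs (unique molecular identifiers, 1 per captured transcript), and 7387, 11000 and 10895 cells were kept. The files used here hold no cell annotation, so cells were clustered without the collagen genes into 28 clusters and named from markers. The names carry "-like" and may differ from those of the study. Fibroblast-like cells numbered 2016 at Sham, 95 at D2 and 2974 at D7, with medians of 6770.5, 13430.0 and 12510.0 UMIs, and all 12 fibroblast markers were detected in each library, at a summed 32991 CPM (counts per 1e+06 UMIs of the class), 7348 CPM and 17392 CPM. Monocyte/macrophage-like cells numbered 1016, 4516 and 2940, and neutrophil-like cells 149, 4527 and 1595. Cluster 5, with 1849 of its 2009 cells at Sham, a median of 831 UMIs and Rbp4, Fmo2 and Nupr1 as leading genes, was left unnamed. Its best-scoring class was fibroblast (relative score of 0.976). A cluster with so few UMIs per cell was named only if a marker of the class was among its 10 leading genes. Cluster 5 had no fibroblast marker there. In unnamed Sham cells the fibroblast markers summed to 30150 CPM. Libraries shared 17 to 27 cell barcodes.

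Collagen transcripts lay mainly in fibroblast-like cells, and within these cells the collagen level was highest 7 days after injury. Summed over the 44 members, collagen made up 1.59% of the UMIs of fibroblast-like cells at Sham, 3.25% at D2 and 6.76% at D7. The level was 2.05-fold (2.03 to 2.06) higher at D2 than at Sham, 4.26-fold (4.24 to 4.28) higher at D7 than at Sham and 2.08-fold (2.07 to 2.10) higher at D7 than at D2. The median single cell gave 1.26%, 2.89% and 6.23%, and the tenth of cells with the most collagen UMIs held 32.8%, 32.4% and 26.5% of them.

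Fibroblast-like cells held 71.8% of the collagen UMIs of the Sham library, 77.1% at D2 and 96.2% at D7. A further 23.5% of the Sham collagen UMIs were in unnamed cells, nearly all of them in cluster 5. The fibrillar chains of these unnamed cells summed to 30866 CPM, against 12821 CPM in fibroblast-like cells at Sham. When cluster 5 was added to the class (an alternative added once the data had been seen), it held 95.3% at Sham and the D7 level was 3.63-fold that at Sham. Over whole libraries collagen was 0.828% of UMIs at Sham, 0.0893% at D2 and 2.81% at D7. The low D2 value stood beside the small number of fibroblast-like cells there (95 of 11000 cells), while the level within those cells was above Sham. In such a sum over a library, fewer cells of a type and less RNA per cell cannot be told apart.

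**Figure D1:**
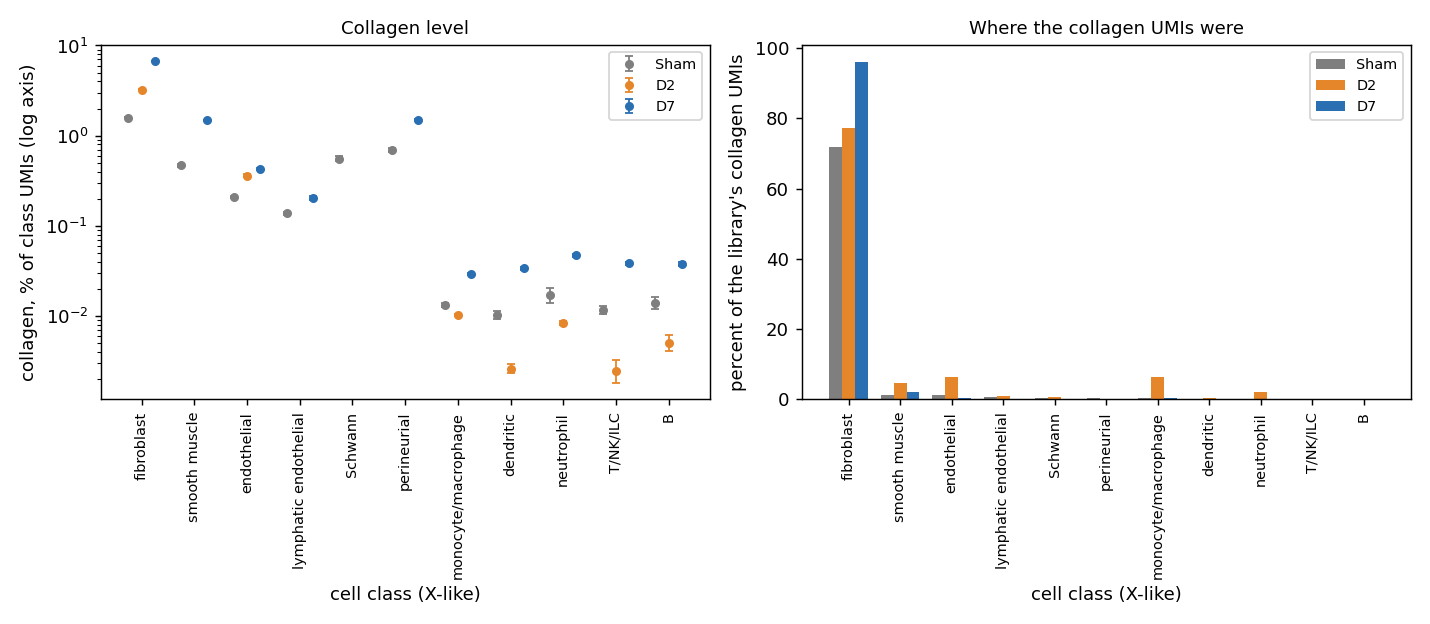
Left, collagen as a percent of all UMIs of each cell class (log axis) in Sham, D2 and D7, with bars for 95% counting intervals; right, the percent of each library's collagen UMIs held by each class. Fibroblast-like cells sit highest among the named classes at D7 (6.76%) and held 71.8%, 77.1% and 96.2% of the collagen UMIs, while immune classes lie near the level of B-like cells.

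The other structural cells held less collagen, also with a higher level at D7 than at Sham. Smooth muscle-like cells gave 0.469% of UMIs at Sham (149 cells) and 1.49% at D7 (297 cells), 3.17-fold (3.07 to 3.28) higher. Perineurial-like cells, named after the sheath cells of nerve bundles, gave 0.696% (90 cells) and 1.496% (63 cells). Endothelial-like cells gave 0.211%, 0.363% and 0.429% in 479, 91 and 390 cells, and lymphatic endothelial-like cells 0.138% at Sham and 0.205% at D7. B-like cells, which should lack collagen transcripts, gave 0.0142%, 0.00509% and 0.0381%, the level that RNA free in the suspension can leave in any droplet. Monocyte/macrophage-like cells gave 0.0133%, 0.0103% and 0.0292%, below B-like cells at Sham and D7 and above them at D2.

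**Figure D2:**
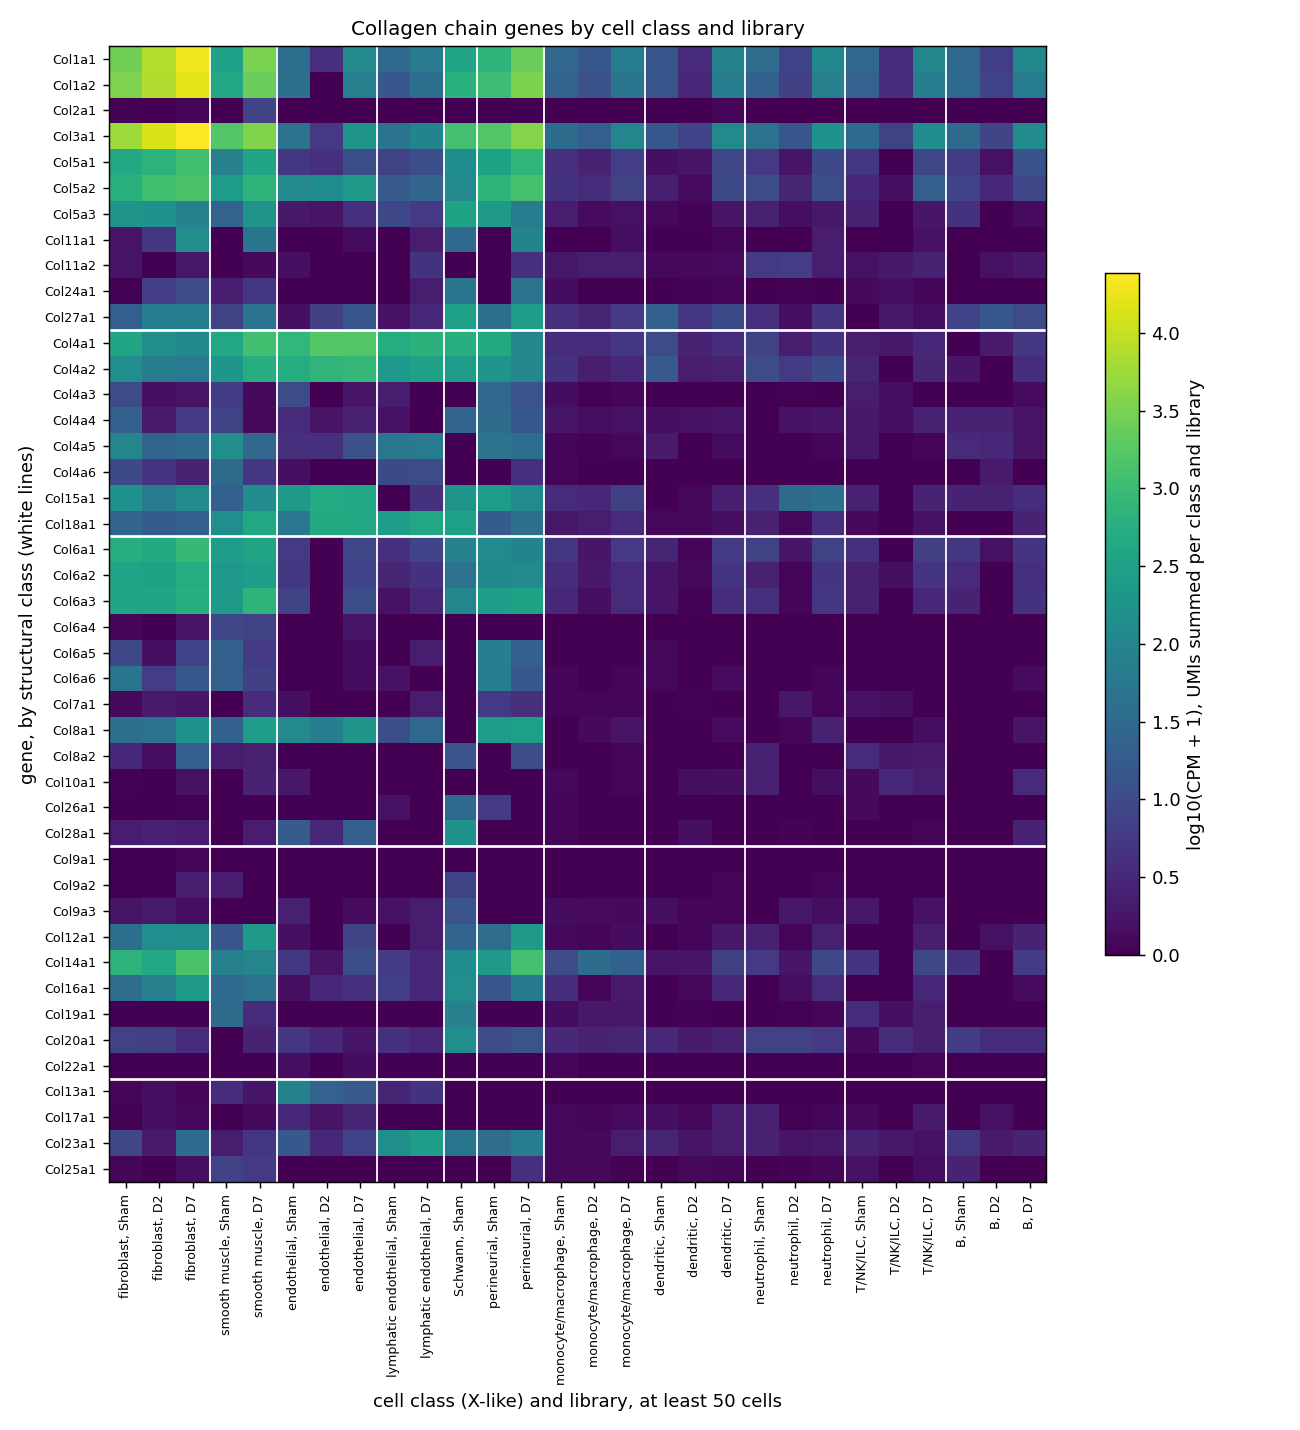
Level of each of the 44 collagen genes (rows, by structural class) in each cell class and library with at least 50 cells (columns), as log10 of CPM + 1 by colour. The fibrillar chains Col1a1, Col1a2 and Col3a1 are the brightest rows in fibroblast-like cells. Within each library, Col4a1 and Col4a2 are highest in the endothelial-like column.

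In fibroblast-like cells the chains split by structural class at D7: most fibrillar and FACIT chains above the floor were higher than at Sham, and most basement membrane chains were lower. A gene was counted as higher or lower at a ratio of CPM + 1 of at least 2, where the library with more of it had 50 CPM and 20 UMIs or more. At D7 against Sham, 11 of the 20 members above that floor were higher (7.83% of all genes above the floor were) and 5 were lower (11.4% of all genes were). The members' median log2 ratio was 1.13, against -0.07 for all genes. By class, 7 of 8 fibrillar and 3 of 3 FACIT chains were higher and 3 of 4 basement membrane chains were lower. At D2 against Sham, 6 of 18 members were higher (15% of all genes) and 4 were lower (16.2%), with a median of -0.01 against 0.05. There 4 of 7 fibrillar and 2 of 3 FACIT chains were higher and 3 of 4 basement membrane chains were lower, while the FACIT sum was 776 CPM at Sham and 631 CPM at D2. At D7 against D2, 6 of 18 were higher (6.47%) and 1, Col5a3, was lower (6.04%). The share of members that were lower at D2 (22.2%) was thus near its background, while the share that were higher at D7 (55.0%) was above it. The members left out of each count were under the floor in both libraries of the pair. Median-of-ratios scaling put the typical gene of these cells 0.15 lower on the log2 scale at D7 than at Sham, and values below are not shifted for it. Different clusters held the class in the 3 libraries, cluster 2 at D2 and D7 and clusters 9 and 11 at Sham, and their values follow after those of the class.

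The fibrillar group led by amount. Its 11 chains summed to 12821 CPM at Sham, 30306 CPM at D2 and 63286 CPM at D7, which was 80.7%, 93.3% and 93.6% of the collagen of fibroblast-like cells. UMI counting from the 3' end is meant to take 1 count per transcript whatever its length, so CPM values of different genes are set side by side. Whether introns were counted is not given, and any effect of gene length on these values was not tested. Col1a1 encodes the α1 chain of type I collagen, the main tensile collagen of the adventitia, and stood at 2679 CPM at Sham, 7696 CPM at D2 and 19637 CPM at D7. It was 2.87-fold (2.82 to 2.93) higher at D2 and 7.33-fold (7.26 to 7.41) higher at D7. Its partner Col1a2 stood at 3444, 7275 and 16392 CPM, 4.76-fold (4.716 to 4.803) higher at D7. Both chains were ordered Sham, D2, D7 from low to high. Col3a1, the single chain of type III collagen, was the most abundant member in each library at 5443, 13237 and 24321 CPM, 4.47-fold (4.44 to 4.50) higher at D7.

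Thinned to 1000 UMIs per cell, Col1a1 was found in 78.4%, 95.7% and 99.5% of fibroblast-like cells, against 2.50%, 0.551% and 11.1% of B-like cells, whose median depths were 4112, 4558 and 3491 UMIs. The type V chains, which set fibril diameter, moved apart. Col5a1 stood at 436, 696 and 1164 CPM and Col5a2 at 614, 1140 and 1453 CPM, 2.67-fold (2.60 to 2.74) and 2.37-fold (2.32 to 2.42) higher at D7 than at Sham. Col5a3, a less common type V chain, stood at 184, 176 and 83.6 CPM and was 2.21-fold (2.10 to 2.32) lower at D7 than at Sham and 2.11-fold (1.88 to 2.36) lower than at D2. Thus the chains of 1 collagen type differed in direction. The D2 level of Col5a3 rests on few cells: without the tenth of fibroblast-like cells with the most UMIs (9 of the 95 at D2, an alternative chosen after seeing the data) Col5a3 at D7 was 1.21-fold that at D2, the opposite direction, and D2 was 0.362 of Sham instead of 0.954. Under median-of-ratios scaling Col5a3 at D7 was 0.503 of Sham, just short of the 2-fold threshold.

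Col11a1, a minor fibrillar chain best known from cartilage and from activated fibroblasts, was nearly absent at Sham and went to a level near that of Col12a1 at D7. It had 10 UMIs (0.693 CPM) in the 2016 Sham cells, 8 UMIs (4.14 CPM) in the 95 D2 cells and 5680 UMIs (149 CPM) in the 2974 D7 cells. The D7 level was 214-fold (117 to 447) that at Sham and 35.9-fold (18.2 to 83.2) that at D2. With 10 CPM added to both sides in place of 1, the D7 to Sham ratio was 14.8, since the Sham level is near 0. A UMI of Col11a1 was found in 0.298%, 6.32% and 34.8% of cells, and in 0.102%, 1.08% and 8.95% after thinning to 1000 UMIs. B-like cells had 0 UMIs of it in all 3 libraries, with upper 95% bounds of 3.08, 2.04 and 1.26 CPM. Col27a1, a chain of thin non-striated fibrils, stood at 19.1, 76.6 and 76.2 CPM, so its D2 and D7 levels lay together, 4.004-fold (3.26 to 4.91) and 3.98-fold (3.52 to 4.52) above Sham.

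**Figure D3:**
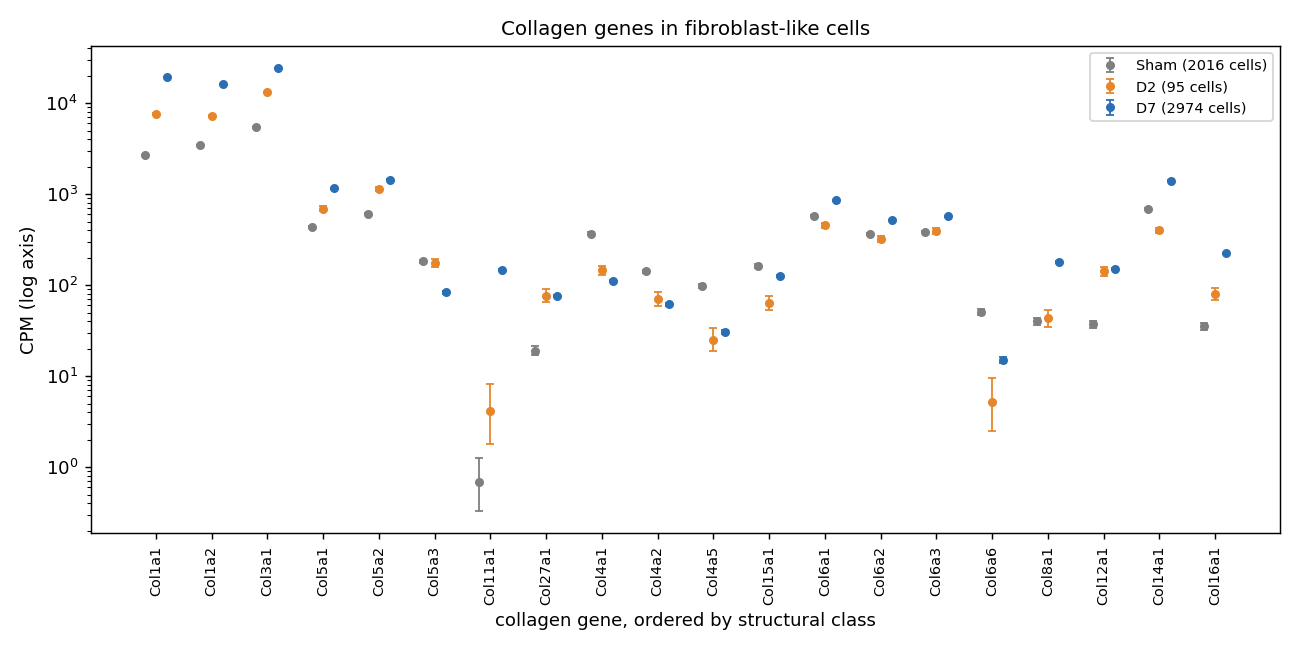
Level in CPM (log axis) of the 20 collagen genes named in fibroblast-like cells, by structural class, in Sham, D2 and D7, with bars for exact Poisson 95% intervals. Col11a1 goes from 0.693 CPM at Sham to 149 CPM at D7, while Col4a1, Col4a2 and Col4a5 lie lower at D7 than at Sham.

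Basement membrane chains were the group with lower levels after injury, at 840 CPM in Sham, 329 CPM at D2 and 360 CPM at D7 in sum. Col4a1, the α1 chain of the type IV collagen sheet, stood at 371, 146 and 112 CPM, 2.53-fold (2.24 to 2.86) lower at D2 and 3.30-fold (3.17 to 3.44) lower at D7 than at Sham. Its partner Col4a2 stood at 143, 70.9 and 61.9 CPM, 2.31-fold (2.17 to 2.45) lower at D7. Col4a5, an X-linked chain of another type IV network, stood at 99.2, 25.4 and 30.7 CPM, 3.23-fold (2.99 to 3.49) lower at D7. All 3 were low at both times after injury. Col15a1, which links basement membranes to the fibrils beside them, differed from these: it stood at 163, 63.6 and 126 CPM, 2.56-fold (2.14 to 3.10) lower at D2 and 1.30-fold (1.23 to 1.36) lower at D7, when it did not pass the 2-fold threshold.

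Of the network chains, the 3 abundant type VI chains stayed under 2-fold at both times. Col6a1, Col6a2 and Col6a3, the chains of its beaded filaments, stood at 584, 364 and 385 CPM at Sham, 455, 322 and 397 CPM at D2 and 863, 518 and 573 CPM at D7, and their D7 to Sham ratios were 1.48, 1.43 and 1.49, all under 2. Col6a6, an alternative to the α3 chain, went the other way, at 50.7, 5.17 and 15.2 CPM from 731, 10 and 580 UMIs. It was 9.79-fold (5.29 to 20.5) lower at D2 and 3.34-fold (2.99 to 3.73) lower at D7. Col8a1, a short-chain collagen of the vessel wall, stood at 40.1 CPM at Sham, 43.5 CPM at D2 and 181 CPM at D7, so it was higher only in the later library, 4.51-fold (4.14 to 4.92) against Sham and 4.16-fold (3.35 to 5.22) against D2.

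The FACIT chains followed 3 courses. Col12a1, which bridges type I fibrils, stood at 37.3, 143 and 151 CPM, already 3.83-fold (3.30 to 4.44) higher at D2 and 4.04-fold (3.70 to 4.42) at D7. Col16a1, which links fibrils to other matrix, stood at 35.4, 80.7 and 224 CPM, a step up at each time, 6.33-fold (5.79 to 6.94) at D7. Col14a1, which coats fibrils in mature connective tissue, stood at 696, 401 and 1410 CPM. It was 1.74-fold (1.61 to 1.87) lower at D2 and 2.03-fold (1.98 to 2.07) higher at D7 than at Sham, close to the threshold, and 3.52-fold (3.28 to 3.78) higher at D7 than at D2. The 4 transmembrane chains summed to 8.04, 2.07 and 34.7 CPM, with none above the floor.

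Within clusters of fibroblast-like cells, the summed collagen level was higher at D7 as in the class, but the members called differed between clusters. Cluster 9 (leading genes Inmt, Penk and C7) held 1113 Sham and 98 D7 cells with collagen at 2.17% and 3.996% of UMIs, 1.84-fold (1.81 to 1.87) higher. Cluster 11 (Pi16 and Sema3c) held 804 and 149 cells at 1.13% and 5.34%, 4.72-fold higher, and cluster 20 (Mmp3 and Sfrp4) 91 and 214 cells at 1.60% and 4.65%, 2.90-fold higher. Cluster 2 (Mfap4, Cthrc1, Kcnma1 and Postn) held 8 Sham, 78 D2 and 2513 D7 cells, with 3.30% at D2 and 7.00% at D7, so 2513 of the 2974 fibroblast-like cells at D7 belonged to a cluster with 8 Sham cells.

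In cluster 9, 2 of 17 members above the floor were higher at D7, Col1a1 and Col3a1 (1.86% of all genes), and 2 were lower, Col5a3 and Col8a1 (2.08%). In cluster 11, 6 of 15 were higher, namely Col1a1, Col1a2, Col3a1, Col5a2, Col14a1 and Col16a1 (3.74%), and 1, Col4a1, was lower (4.53%). In cluster 20, 10 of 17 were higher (13.8%) and 1, Col15a1, was lower (6.11%). Col1a1 and Col3a1 were therefore higher in each of the 3 clusters, while Col1a2 in cluster 9 was under 2-fold. Col1a1 was 2.15-fold higher in cluster 9, 7.46-fold in cluster 11 and 2.99-fold in cluster 20.

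Col4a1 was lower at D7 within each of the 3 clusters, at 643 and 370 CPM in cluster 9, 167 and 82.1 CPM in cluster 11 and 150 and 108 CPM in cluster 20. These within-cluster ratios of 0.575, 0.493 and 0.718 are smaller differences than that of the whole class. Col5a3 differed in direction between clusters: 257 and 121 CPM in cluster 9, but 131 and 249 CPM in cluster 11, 1.90-fold higher. Col12a1, 4.04-fold higher in the class, stood at 35.4 and 12.1 CPM in cluster 9 and at 39.4 and 26.7 CPM in cluster 11. It was higher only in cluster 20, at 8.35 CPM from 2 UMIs and 70.1 CPM, and its D7 level in cluster 2 was 165 CPM. Col8a1 stood at 74.6 and 24.1 CPM in cluster 9, at 14.1 and 26.3 CPM in cluster 11 and at 25.04 and 111 CPM in cluster 20, where it was 4.43-fold (2.00 to 12.2) higher, against 196 CPM in cluster 2 at D7.

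**Figure D4:**
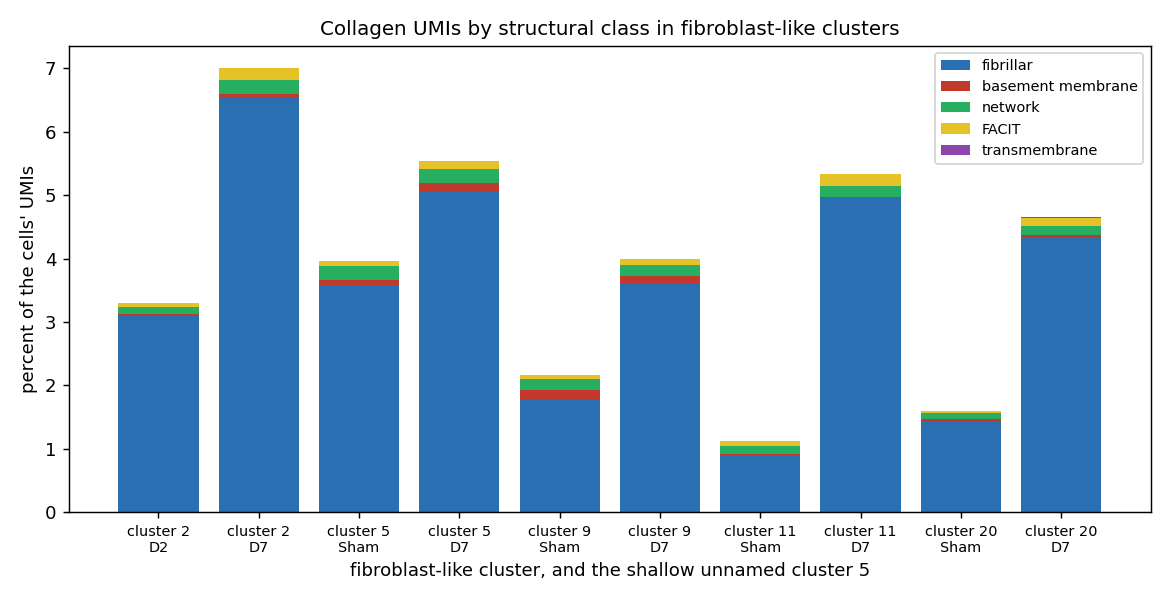
Collagen UMIs as a percent of all UMIs, stacked by structural class, in fibroblast-like clusters 2, 9, 11 and 20 and the shallow unnamed cluster 5, for libraries with enough cells. D7 bars are higher than Sham or D2 bars of the same cluster (7.00% against 3.30% in cluster 2, 5.34% against 1.13% in cluster 11), and the fibrillar part makes up most of each bar.

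Col11a1 was held almost wholly by cluster 2. At D7 that cluster had 5568 of the UMIs (164 CPM), cluster 20 had 95 (56.9 CPM), cluster 11 had 12 (5.53 CPM) and cluster 9 had 5 (10.1 CPM). Split further at resolution 2, the D7 cells of a cluster led by Kcnma1, C1qtnf3 and Cthrc1 (1508 cells) and one led by Timp1, Mgp, Cxcl14 and Cilp (953 cells) differed in which collagens they held. The first had Col11a1 at 201 CPM, Col12a1 at 205 CPM, Col15a1 at 39.9 CPM and Col4a1 at 43.4 CPM. The second had Col11a1 at 59.6 CPM, Col12a1 at 38.6 CPM, Col15a1 at 449 CPM and Col4a1 at 322 CPM. Col11a1 and Col12a1 were thus higher in the one and Col15a1 and Col4a1 in the other, while Col8a1 was alike in both, at 195 and 205 CPM. Their median depths were 16374 and 6618 UMIs, and these clusters were chosen for description after their values were seen.

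The ratio between chains of 1 trimer also differed between libraries. Type I collagen pairs chains from Col1a1 and Col1a2, and their UMI ratio in fibroblast-like cells was 0.778 (0.768 to 0.788) at Sham, 1.06 (1.03 to 1.08) at D2 and 1.20 (1.19 to 1.20) at D7. In smooth muscle-like cells it was 0.717 (0.607 to 0.846) at Sham and 1.33 (1.29 to 1.36) at D7, above the ratio of the whole D7 library (1.20). In perineurial-like cells it was 0.680 and 0.755. The ratio of Col1a1 to Col3a1 in fibroblast-like cells was 0.492, 0.581 and 0.807, and that of Col4a1 to Col4a2 was 2.60, 2.07 and 1.81. Unnamed Sham cells, left out of the fibroblast-like ratios, held 37.8% of their library's Col1a1, 27.3% of its Col1a2 and 21.8% of its Col3a1 UMIs. The Sham ratios of Col1a1 to Col1a2 and to Col3a1 are therefore lower than with these cells counted. Over whole libraries, Col1a1 had fewer UMIs than Col1a2 at Sham (63824 and 70040). It had more at D2 (16441 and 15384) and at D7 (770993 and 642418).

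Smooth muscle-like cells (149 at Sham, 297 at D7) differed from fibroblast-like cells in the direction of the basement membrane chains: 4 were higher at D7. The class also holds Rgs5-rich cells, and the 14 cells at D2 were too few for a comparison. Of 17 members above the floor, 13 were higher at D7 (10.8% of all genes) and 1, Col4a5, was lower (8.41%), with a median log2 ratio of 1.55 against 0.09 for all genes. All 10 smooth muscle markers had a UMI at Sham and 9 at D7, with sums of 30394 and 12649 CPM. The 12 fibroblast markers summed to 2219 and 1650 CPM in these cells, and their part in the collagen values was not tested. The tenth of cells with the most collagen UMIs held 36.6% of them at Sham and 53.2% at D7, while the median cell went from 0.352% to 0.947% collagen. In the resolution 2 alternative the collagen level was 2.24-fold higher at D7, and without the tenth of cells with the most UMIs it was 2.70-fold higher. The class at resolution 2 included a cluster of 48 Sham and 0 D7 cells. That cluster had a median of 1208 UMIs, and its best-scoring class was fibroblast.

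Among their fibrillar chains, Col3a1 stood at 1644 CPM at Sham and 3581 CPM at D7, 2.18-fold (2.06 to 2.31) higher. Col5a1 stood at 81.5 and 369 CPM, Col5a2 at 250 and 718 CPM, and Col5a3 at 24.2 and 187 CPM. Col5a3 was thus 7.73-fold (4.91 to 12.9) higher in these cells, the reverse of its direction in fibroblast-like cells. Col1a1 and Col1a2, whose levels are under 0.25 of those in fibroblast-like cells and are named after seeing their values, stood at 320 and 3200 CPM and at 446 and 2413 CPM, against 29.2 and 111 CPM of Col1a1 in B-like cells.

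Of the basement membrane chains, Col4a1 stood at 413 and 1135 CPM and Col4a2 at 198 and 550 CPM, 2.75-fold (2.45 to 3.09) and 2.78-fold (2.36 to 3.30) higher at D7. Col18a1, whose C-terminal fragment is endostatin, stood at 143 and 420 CPM, 2.94-fold higher, and Col15a1 at 21.7 and 132 CPM, 6.08-fold (3.76 to 10.5) higher. Col4a5 alone was lower, at 145 and 27.1 CPM, 5.35-fold (4.05 to 7.099). The largest ratios belonged to Col12a1 (14.0 and 232 CPM, 16.5-fold, 9.19 to 33.3) and Col8a1 (21.7 and 281 CPM, 13.0-fold, 8.07 to 22.4), from 11 and 17 UMIs at Sham. Col6a3 stood at 226 and 697 CPM, 3.09-fold (2.65 to 3.62) higher, while Col6a1 (271 and 360 CPM) and Col6a2 (215 and 272 CPM) were under the threshold. The ratio of Col6a3 to Col6a1 went from 0.831 to 1.94 in these cells, against 0.660 and 0.664 in fibroblast-like cells.

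Endothelial-like cells (479, 91 and 390 cells) held mostly basement membrane chains, of which Col18a1 had the largest ratio to Sham. Col4a1 stood at 807 CPM at Sham, 1683 CPM at D2 and 1652 CPM at D7, 2.08-fold (1.96 to 2.22) and 2.05-fold (1.93 to 2.17) higher than Sham, and Col4a2 at 511, 751 and 830 CPM, under 2-fold. Col18a1 stood at 51.7, 458 and 435 CPM, 8.86-fold (7.18 to 11.03) and 8.41-fold (6.87 to 10.4) higher. Col15a1 stood at 222, 472 and 434 CPM, 2.12-fold higher at D2 and 1.95-fold at D7. D2 and D7 levels of these 4 chains lay within 1.11-fold of each other. Col13a1, a transmembrane collagen of cell adhesions, went the other way at 84.1, 22.8 and 16.1 CPM, 3.69-fold (2.52 to 5.57) and 5.23-fold (3.72 to 7.497) lower. Col8a1 stood at 114, 74.7 and 196 CPM, 2.62-fold higher at D7 than at D2, and Col8a2, the other type VIII chain, had 0 UMIs in all 3 libraries beside 225, 105 and 523 UMIs of Col8a1.

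At D2 against Sham, 3 of 7 endothelial members above the floor were higher, Col4a1, Col15a1 and Col18a1 (10.1% of all genes), and 1, Col13a1, was lower (10.4%). At D7 against Sham 5 of 10 were higher (5.26%) and 1, Col13a1, was lower (6.24%). At D7 against D2, 4 of 9 were higher (2.16%) and 0 were lower (1.03%). Among the higher members at D7 were Col1a1, Col3a1 and, against D2, Col1a2. Col1a1 in these cells at D7 (115 CPM) lay close to its level in B-like cells (111 CPM), which is the level that free RNA can give, so its count here is not read as expression. In lymphatic endothelial-like cells 2 of 7 were higher at D7, Col1a1 and Col3a1 (3.82%), at 65.1 and 94.2 CPM, and 0 were lower (3.96%). Both levels were below those in B-like cells at D7 (111 and 129 CPM) and are not read as expression. Col23a1, a transmembrane chain, stood there at 149 and 278 CPM (1.87-fold), Col18a1 at 279 and 422 CPM (1.51-fold), Col4a1 at 512 and 656 CPM, Col4a2 at 227 and 321 CPM and Col4a5 at 51.1 and 61.7 CPM, all under the 2-fold threshold.

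Collagen chains were also present in cells named as nerve-associated. The name perineurial-like rests on few markers. In its cluster, led by Tenm2 and Sfrp5, 3 markers were found in at least 10% of cells and 1 was a leading gene. With collagen genes allowed in clustering, a cluster led by Sfrp5 and Tenm2 was left unnamed. With doublets kept, no cluster was named perineurial-like. Perineurial-like cells (90 at Sham and 63 at D7) had 8 of 18 members higher at D7 (13% of all genes) and 3 lower (12%). Col1a1 stood at 710 and 2495 CPM, 3.52-fold (2.96 to 4.20) higher, Col1a2 at 1044 and 3303 CPM, Col3a1 at 1604 and 3685 CPM and Col5a1 at 348 and 731 CPM. Col14a1 stood at 235 and 1252 CPM, 5.33-fold (3.98 to 7.25) higher, Col27a1 at 40.7 and 268 CPM, 6.60-fold (3.32 to 14.9), and Col12a1 at 36.2 and 237 CPM, 6.57-fold (3.17 to 15.8). Col11a1 had 0 UMIs at Sham and 29 at D7. Lower were Col4a1 (452 and 108 CPM, 4.19-fold, 2.82 to 6.34), Col5a3 (226 and 70.9 CPM, 3.19-fold) and Col15a1 (262 and 120 CPM, 2.18-fold). Col1a1, Col4a1 and Col5a3 went the same way as in fibroblast-like cells, and the fibroblast markers summed to 5803 CPM at Sham and 2587 CPM at D7 here, whose part in these values was not tested. Col8a1 (267 and 293 CPM) and Col6a3 (271 and 355 CPM) were under the threshold, as were Col5a2 (723 and 1283 CPM), Col4a2 (185 and 105 CPM), Col6a2 and Col23a1.

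Schwann-like cells, the glia of nerves, were 50 at Sham and 26 at D7, too few for a comparison. Their highest Sham levels were those of Col3a1 (1185 CPM), Col1a2 (626 CPM), Col4a1 (565 CPM) and Col1a1 (356 CPM), of which the fibrillar chains were far below their level in fibroblast-like cells. Col5a3 (332 CPM), Col18a1 (325 CPM) and Col27a1 (319 CPM) came next. Col28a1, a chain known from peripheral nerve, stood at 178 CPM (119 to 256) from 29 UMIs, and Col20a1 and Col16a1 at 141 CPM each from 23 UMIs. Platelet-like cells, split from the smooth muscle cluster by their finer clusters (84 at D2 and 59 at D7), gave collagen at 0.321% of UMIs at D2 and 1.54% at D7, 4.79-fold (4.36 to 5.27) higher. At D7 Col1a1 (4543 CPM), Col1a2 (3388 CPM) and Col3a1 (4597 CPM) made up most of it, at under 0.25 of their level in fibroblast-like cells, and the tenth of cells with the most collagen UMIs held 54.5% of them. Col5a1, Col5a2, Col6a1, Col6a2, Col6a3 and Col14a1 stood there at 167 to 441 CPM, at a median of 1523 UMIs per cell. The fibroblast markers summed to 1425 CPM at D2 and 3521 CPM at D7 in platelet-like cells, against 19.9 and 134 CPM in B-like cells. The smooth muscle markers summed to 582 and 1283 CPM in platelet-like cells. The part of such transcripts in these collagen values was not tested.

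At D2, when few fibroblast-like cells were present, several members had much of their library's UMIs in immune cells. Monocyte/macrophage-like and neutrophil-like cells were 4516 and 4527 of the 11000 cells there. A large share of UMIs in them therefore does not by itself mean a high level. Among those with over 1000 UMIs in that library these were Col14a1 and Col15a1. Of the rarer ones, Col11a2 (177 UMIs) and Col20a1 (247 UMIs) had 59.9% and 49.8% in neutrophil-like cells and 36.2% and 33.2% in monocyte/macrophage-like cells, and Col19a1 (57 UMIs) had 91.2% in the latter. Col4a4, Col7a1 and Col9a3, at 30 to 50 UMIs, also had most of theirs in these immune classes. By level at D2, Col11a2 was highest in neutrophil-like cells (5.21 CPM) and Col19a1 in monocyte/macrophage-like cells (1.02 CPM). Col20a1 was alike in neutrophil-like (6.05 CPM) and fibroblast-like cells (5.69 CPM). Col4a4 was highest in B-like cells (1.66 CPM), and Col7a1 and Col9a3 in fibroblast-like cells (1.03 CPM each). All levels of Col14a1 and Col15a1 in the immune classes are under the 50 CPM floor, and the genes of this paragraph and the next were named after their values were seen. Col14a1 had 67.4% of its 2571 D2 UMIs in monocyte/macrophage-like cells and 30.1% in fibroblast-like cells, although its level was far higher in the latter (401 CPM). Its level in monocyte/macrophage-like cells was 9.03 CPM at Sham, 33.9 CPM at D2 and 22.0 CPM at D7, against 3.34, 0 and 5.12 CPM in B-like cells. In cluster 0 (Arg1, Pf4, Spp1 and Fcrls) it stood at 49.3 CPM (46.8 to 51.9) at D2, with a UMI in 24.9% of 2408 cells, and at 28.4 CPM at D7. Col1a1 in that cluster at D2 was 6.12 CPM, close to the 5.53 CPM of B-like cells. Thinned to 1000 UMIs, 1.41%, 3.001% and 1.86% of monocyte/macrophage-like cells held a Col14a1 UMI, while B-like cells had 0 UMIs of it at D2, with an upper 95% bound of 2.04 CPM.

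Col15a1 had 42.3% of its 1567 D2 UMIs in endothelial-like cells and 40.5% in neutrophil-like cells. In neutrophil-like cells it stood at 3.07 CPM at Sham from 2 UMIs, 31.2 CPM (28.8 to 33.7) at D2 and 40.5 CPM (35.7 to 45.7) at D7, against 1.67, 1.66 and 2.73 CPM in B-like cells. A UMI was found in 10.9% of neutrophil-like cells at D2 (median of 3812 UMIs) and in 2.50% after thinning, against 0.813% and 0.551% of B-like cells. It lay in clusters 1 and 3, at 27.9 and 39.0 CPM at D2 and at 46.0 and 49.9 CPM at D7. An antisense gene overlaps the 5′ end of Col15a1 and others lie within Col14a1. The sources used here do not state how strand was used in counting.

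**Figure D5:**
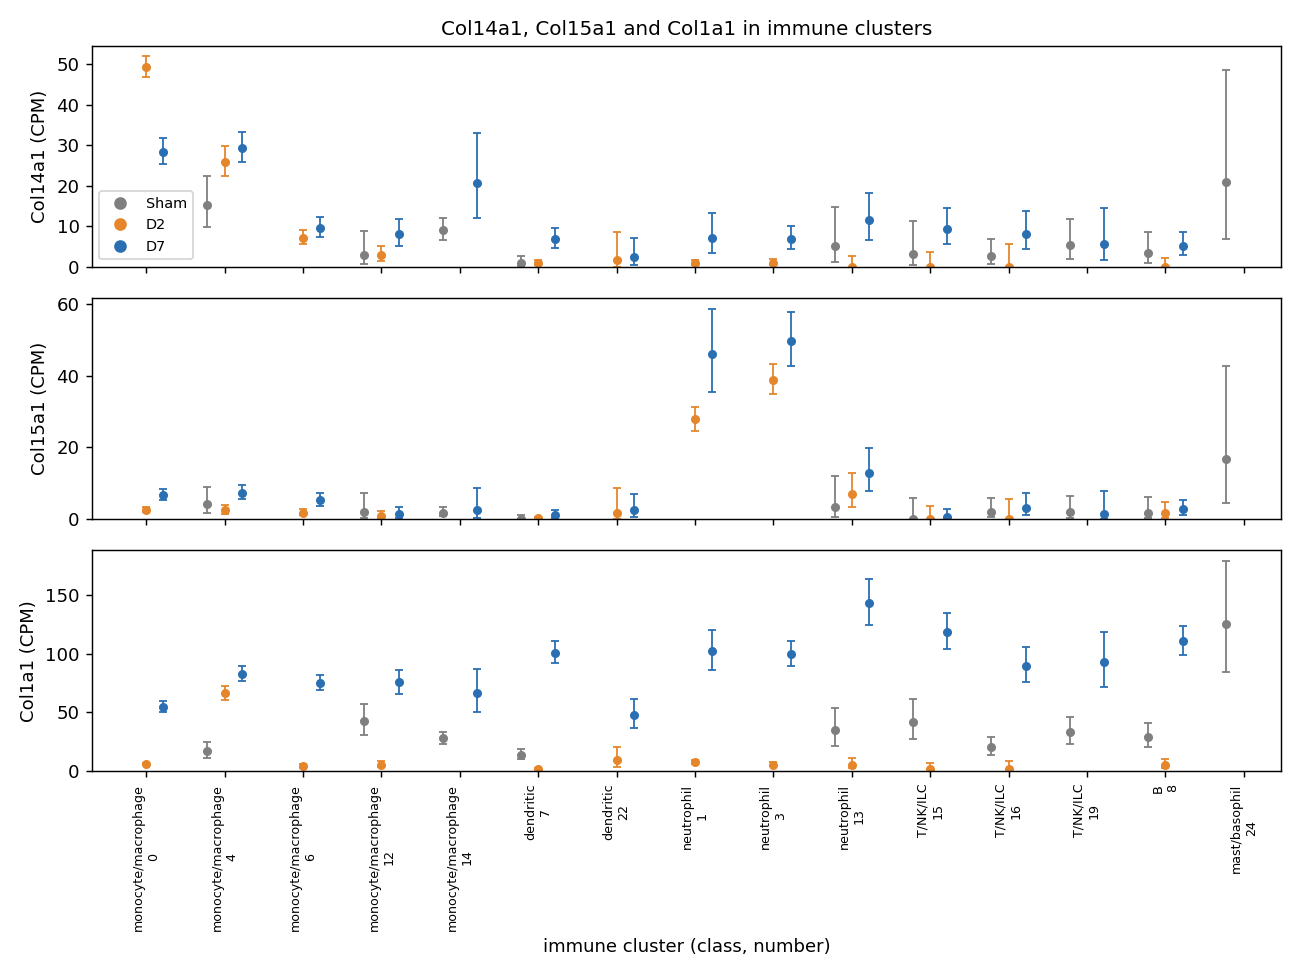
Levels in CPM of Col14a1 (top), Col15a1 (middle) and Col1a1 (bottom) in each immune cluster and library, with exact Poisson 95% intervals. Col14a1 is highest in macrophage-like cluster 0 at D2 (49.3 CPM), Col15a1 in neutrophil-like clusters 1 and 3, while Col1a1 is spread over all immune clusters at D7.

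Genes that act on collagen were counted in fibroblast-like cells from 8 lists, by the same rule. These counts are to be read against the share of all genes of these cells, which was 15% higher and 16.2% lower at D2 and 7.83% higher and 11.4% lower at D7 against Sham. Of the prolyl and lysyl hydroxylation and glycosylation list, 7 of 13 members above the floor were higher and 0 lower at D2, and 6 of 13 higher and 0 lower at D7 against Sham. P4ha3, a prolyl 4-hydroxylase subunit, stood at 3.67, 49.7 and 90.4 CPM, 24.6-fold (18.8 to 32.9) higher at D7. Plod2, which hydroxylates the telopeptide lysines used in crosslinks, stood at 53.4, 337 and 436 CPM, 8.16-fold (7.59 to 8.78), and Fkbp10, a chaperone for Plod2, at 27.7, 166 and 83.9 CPM, 3.03-fold. Of the crosslinking list, 2 of 4 were higher at D2 (15% of all genes) and 1 at D7 (7.83%). Lox, the lysyl oxidase, stood at 87.2, 628 and 333 CPM, highest at D2. Of the chaperone and export list, 2 of 8 were higher at D2 (15% of all genes) and 0 at D7 (7.83%), with 0 lower at either time, a D2 count not far from the background. Serpinh1, the collagen chaperone HSP47, was 2.58-fold higher at D2 and 1.87-fold at D7 (995, 2570 and 1866 CPM), with Sar1a the other. Levels of these modifying genes at D2 were thus already at or above those at D7 for Fkbp10, Lox and Serpinh1, whereas Col1a1 was highest at D7.

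Of the fibril partners, 2 of 10 were higher (15% of all genes) and 5 lower (16.2%) at D2, and 8 of 12 higher (7.83%) and 2 lower (11.4%) at D7. The 2 higher at D2 and the 2 lower at D7 are near the background. Fmod (5.89, 2.07 and 101 CPM), Comp (29.7, 30.5 and 383 CPM) and Postn (299, 739 and 2582 CPM), which bind fibrils and aid their assembly, were 17.2-, 12.9- and 8.62-fold higher at D7. Of the cleavage list, 1 of 6 was higher (15%) and 2 lower (16.2%) at D2, and 4 of 6 were higher (7.83%) and 0 lower (11.4%) at D7. Timp1, an inhibitor of metalloproteinases, stood at 44.8, 1854 and 606 CPM, and the collagen-degrading Mmp14 and Ctsk were 3.53- and 3.50-fold higher at D7. Of the propeptide processing list 1 of 4, Pcolce2, was lower, at 786, 100 and 61.1 CPM, and 0 were higher at either time. Of the receptor and uptake list 2 of 4 were lower at D2 and 1, Ddr2, at D7 (623, 192 and 161 CPM), and 0 were higher. Of the laminin and basement membrane partner list, 6 of 8 were lower (16.2% of all genes) and 0 higher at D2, and 4 of 8 lower (11.4%) and 0 higher at D7. Counts of 1 or 2 genes in these lists say little beside the background. Nid1, the nidogen that joins laminin to type IV collagen, stood at 987, 136 and 302 CPM and the laminin chain Lamc1 at 541, 177 and 172 CPM, so both were lower in the same comparisons as Col4a1.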

How the data were processed

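The deposited matrices hold raw UMI counts per gene and barcode, 1 matrix per group, checked to be whole numbers. The authors made them with Cell Ranger against mm10: version 7.2.0 per the submitters' processing notes (with Seurat 5.0.1) but 7.1.0 per the file headers. Whether introns were counted and how strand was used are not given in the sources used here.

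Of the barcodes, 306 (Sham), 217 (D2) and 363 (D7) fell to filters of 300 genes, 500 UMIs and 15% mitochondrial UMIs. Scrublet, run per library in scanpy 1.11.5 with an expected doublet rate of 8%, removed 64 (0.859%), 473 (4.12%) and 316 (2.82%). The 3 libraries were clustered together (2000 variable genes without collagen genes, 30 components, 15 neighbours, leidenalg 0.10.2 at resolution 1, no batch correction). Clusters were named from 172 markers of 18 classes, and 26 of 28 were named. Thresholds and extra genes for reading leading genes were chosen with the clusters in view. Clusters 17 and 21 were split by their clusters at resolution 2.

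UMIs were summed per class and library. CPM carries exact Poisson intervals, ratios exact conditional binomial ones and shares Clopper-Pearson ones, all at 95%. They treat UMIs as independent and leave out differences between mice, operations and cells. A class was compared where both libraries had at least 50 of its cells. With 1 library per group no test was made.

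A member gets values in a class where 1 library gave it 50 CPM and 20 UMIs or more, with a UMI in at least 5% of cells and at least 0.25 of the level of the highest class of that library. Of each pathway list, up to 3 members with the largest D7 to Sham ratio were to be named, and further ones were chosen after their values were seen. The 8 lists were hydroxylation and glycosylation, chaperones and export, propeptide processing, crosslinking, fibril partners, receptors and uptake, cleavage, and laminins and basement membrane partners. The members and all lists were chosen with earlier results of these data known. On counts simulated for the D7 to Sham comparison of fibroblast-like cells (32285 genes), all 100 genes raised 4-fold and all 100 lowered 4-fold were called, with 0 of 3104 unchanged genes above the floor called. For D2 to Sham 0 of 3299 unchanged genes were called, and for smooth muscle-like cells at D7 to Sham 2 of 3273. The simulated counts held Poisson error only, and the changed genes had a mean of at least 100 CPM. This checks the counting rule alone. It cannot measure false calls from differences between mice, operations or cells. The alternatives tried were other cell filters, doublets kept, other clusterings, floors, folds, pseudocounts, scalings and thinning depths, B-like levels subtracted, and means over cells. Analyses ran in Python 3.11.15 with NumPy 2.4.6, SciPy 1.17.1, pandas 2.3.3, scikit-learn 1.9.0 and matplotlib 3.10.9.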

Additional observations from a re-analysis of the deposited data

Results flagged for a closer look

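Several chains differed in direction between cell classes under the same contrast. In each case the difference was not tested, since there was 1 library per group. Col4a1 at D2 over Sham was 2.08 in endothelial-like cells and 0.395 in fibroblast-like cells. Col15a1 at D2 over Sham was 2.12 in endothelial-like cells and 0.390 in fibroblast-like cells. Col5a3 at D7 over Sham was 7.73 in smooth muscle-like cells, 0.453 in fibroblast-like cells and 0.314 in perineurial-like cells. Col4a1 at D7 over Sham was 2.75 in smooth muscle-like cells, 2.05 in endothelial-like cells, 0.303 in fibroblast-like cells and 0.239 in perineurial-like cells. Col4a2 at D7 over Sham was 2.78 in smooth muscle-like cells and 0.434 in fibroblast-like cells. Col15a1 at D7 over Sham was 6.08 in smooth muscle-like cells and 0.459 in perineurial-like cells. Every value given here is at least 2-fold from 1, in opposite directions between classes.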

How the results depend on the processing

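No paired analysis was possible because each group is 1 library, and for the same reason no replicate could be left out. The cause of each difference below was not tested unless the alternative's construction shows it. The fibroblast-like share of collagen UMIs was 71.8%, 77.1% and 96.2% at Sham, D2 and D7. It was 81.2%, 78.9% and 96.3% with minimums of 500 genes and 1000 UMIs, and 95.4%, 73.2% and 97.1% with called doublets kept. As a mean over cells, each cell's collagen fraction weighed alike whatever its depth, so the result is not a share of UMIs. That value was 30.6%, 40.5% and 91.2%, under which fibroblast-like cells did not hold most of the collagen at Sham or D2. With B-like levels subtracted, the share of collagen UMIs was 72.3%, 79.6% and 96.8%. At resolution 2 it was 72.2% at Sham and 96.1% at D7, with collagen genes allowed in clustering 70.8% and 96.2%. Counting cluster 5 as fibroblast-like, an alternative chosen after seeing the data as were those on splitting clusters 17 and 21 and on the tenth of cells with the most UMIs, gave 95.3%, 77.8% and 96.5%. With doublets kept and cells clustered anew, a shallow cluster led by Rbp4, Fmo2 and Nupr1 was named fibroblast-like. It held 1936 Sham cells at a median of 857 UMIs over its cells. The fibroblast-like values with doublets kept, here and below, include that cluster.

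The collagen level of fibroblast-like cells at D2 over Sham, D7 over Sham and D7 over D2 was 1.88, 3.61 and 1.92 with doublets kept and 1.89, 3.74 and 1.98 as a mean over cells. It was 1.94, 4.11 and 2.12 without the tenth of cells with the most UMIs, and 1.74 and 3.63 for D2 and D7 over Sham with cluster 5 added. In smooth muscle-like cells D7 over Sham was 2.53 with doublets kept, 2.24 at resolution 2, 2.82 as a mean over cells and 2.70 without the tenth of cells. In endothelial-like cells the mean over cells gave 1.64, 1.84 and 1.13 for the 3 comparisons, subtraction of B-like levels 1.82 at D2 over Sham and 1.09 at D7 over D2, doublets kept 1.97 at D7 over Sham, and leaving out the tenth of cells 1.13 at D7 over D2.

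Counts of members in fibroblast-like cells also moved. Higher at D2 over Sham were 3 with cluster 5 added. Lower at D2 over Sham were 1 as a mean over cells and 9 with no floor. Lower at D7 over Sham were 3 as a mean over cells and 8 with no floor. Higher at D7 over D2 were 12 with no floor and 11 at a fold of 1.5. Lower at D7 over D2 were 0 as a mean over cells, without the tenth of cells, or with median-of-ratios size factors. Dropping the floor tests more genes, and a fold of 1.5 is a looser threshold. Of 1308 values for single genes under alternatives, 1083 stayed within their counting interval or error, 224 moved and 1 reversed. The reversal was Col5a3 in fibroblast-like cells at D7 over D2, 1.21 without the tenth of cells with the most UMIs. How many moved depended on the setting. Of 113 single-gene results, 66 moved as a mean over cells and 47 stayed. Without the tenth of cells, 51 moved, 1 reversed and 61 stayed. With minimums of 500 genes and 1000 UMIs all 113 stayed, and at resolution 2, 110 stayed and 3 moved. With doublets kept, 30 moved and 67 stayed. Doublets kept, collagen genes allowed in clustering and clusters left unsplit each gave values for fewer than 113 results.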
